A study of Ovis aries with 24 samples.

Results

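The rumen epithelium and the omasum epithelium of lambs at d10 were compared by RNA sequencing, with 3 libraries of each chamber. These 6 libraries were chosen by their labels for chamber and day, out of 24 libraries that cover the rumen, reticulum, omasum and abomasum at d5 and d10. No treatment or genetic change is labelled for any group, and the labels give the tissue as epithelium taken off the muscle layer, with the rumen sampled at its ventral sac. The study's methods describe male Hu lambs raised on ewe's milk, with starter pellets offered from d10, for the rumen samples of d5. For the d10 lambs, neither the labels nor the methods state breed, sex, diet or whether a lamb gave both chambers. The d5 omasum libraries were left out of the comparison, since libraries 1 and 2 of that group hold abomasal transcripts.

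The rumen, reticulum and omasum form the forestomach of ruminants and are lined by a stratified squamous epithelium, whereas the abomasum is the glandular stomach. In grown animals the rumen is the fermentation chamber, and its epithelium bears papillae, absorbs volatile fatty acids and makes ketone bodies from them. The omasum is filled with leaves of mucosa and is known for taking up water and the remaining acids. Before solid feed is eaten, milk passes to the abomasum along the closed reticular groove, so that the forestomach of the suckling lamb does little digestion.

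The 27054 genes are listed by Ensembl identifier alone, and the RefSeq table of sheep genes used here holds no Ensembl identifiers, so that they could not be given symbols. The genes are therefore described by level, size of difference and pattern across the libraries, and the 2 genes with the largest fitted fold change in each direction (of called genes averaging 5 CPM or more whose chambers lay apart) are given by identifier. Genome positions and sequences of these genes were not used here. Total counts of the 6 libraries ranged from 13900243 to 18464144, so that 3 counts stood for 0.162 to 0.216 CPM (the count over the library total, scaled to 1000000) in the rumen and 0.175 to 0.205 CPM in the omasum. Across the genes tested, Pearson's r of log2 CPM was 0.960 to 0.975 between libraries of the same chamber and 0.846 to 0.910 between rumen and omasum. Genes are not independent replicates, so that these values only describe the libraries. In bulk tissue, fewer cells of a type and less RNA per cell cannot be told apart.

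The labels of the 6 libraries were compared with genes set apart in the 2 other chambers. A set of 23 abomasal genes had at least 100 CPM in each abomasum library and at most 1% of the lowest abomasum value in each reticulum library. Their summed level was 0.00567% to 0.0169% of the abomasum mean in the rumen and 0.00366% to 0.0297% in the omasum. In the omasum libraries 1, 2 and 3 of d5 it was 7.38%, 94.1% and 0.0662%, so that library 3 was the 1 d5 omasum library used for comparison. The reverse rule gave 39 forestomach genes, whose median level in libraries 1, 2 and 3 was 98.5%, 112% and 88.5% of the reticulum mean in the rumen libraries and 81.0%, 84.4% and 63.2% in the omasum libraries. Their summed level was 69.3%, 99.5% and 62.5% in the rumen and 86.1%, 99.7% and 66.1% in the omasum, so that the rumen had the higher median and the omasum the higher sum at each number. All 6 libraries thus expressed the forestomach genes and had abomasal genes near 0. Markers of muscle, immune or connective tissue cells could not be read without gene names, and their part in the results was not tested.

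At d10, 3410 of 15124 genes tested (22.5%) differed between rumen and omasum (edgeR, adjusted P under 0.05). Of these, 1411 genes (9.33% of those tested) were higher in the rumen and 1999 (13.2%) were higher in the omasum. The difference was also larger on the omasum side. The median log2 fold change was 0.83 (quartiles 0.63 and 1.35) for genes higher in the rumen and 1.65 (quartiles 1.03 and 2.83) for genes higher in the omasum, which is a median fold of 1.78 and 3.14. After TMM scaling (trimmed mean of M-values), the 3 rumen values lay apart from the 3 omasum values for 1408 of the 1411 genes and 1994 of the 1999 genes. Of all genes tested, 20.5% and 21.9% lay apart in these directions. Since the genes were called on the same libraries, these numbers only describe them.

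The number of genes higher in the rumen fell when any single library was left out. It was 654, 1158 and 1050 without rumen library 1, 2 or 3, and 800, 669 and 1063 without omasum library 1, 2 or 3. Fewer replicates also lower the power of the test, and this was not told apart from an effect of the library left out. All genes called together were 1993 without rumen library 1. The balance of both directions also depended on the scaling. Library totals alone gave 1835 genes higher in the rumen (51.7% of the calls) and 1716 higher in the omasum. With TMM scaling, 41.4% of the calls were higher in the rumen. The median log2 fold change of all genes was 0.08 with library totals alone and 0.0018 with TMM scaling.

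**Figure D1:**
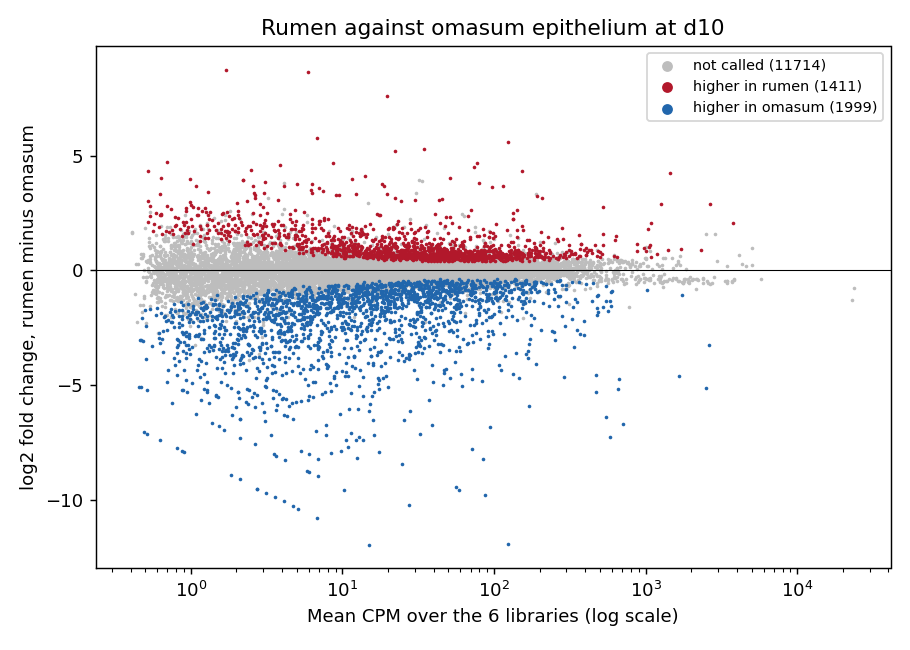
The log2 fold change (rumen minus omasum, vertical axis) is plotted against the mean CPM over the 6 libraries (horizontal axis, log scale), with 1 point per gene tested; red and blue points are the 1411 and 1999 genes called. The blue points reach much farther from 0 than the red points over most levels.

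Large differences were mostly on the omasum side. Among the genes called, 804 were at least 4-fold higher in the omasum and 151 were at least 4-fold higher in the rumen. At 16-fold the numbers were 240 and 19, and at 64-fold 78 and 3. In a test against a minimum fold of 2 (edgeR glmTreat, adjusted P under 0.05), 854 genes (5.65% of those tested) passed, of which 749 (4.95%) were higher in the omasum and 105 (0.694%) in the rumen. When single libraries were left out, the genes called at 4-fold or more ran from 700 to 945 for the omasum and from 124 to 175 for the rumen. With library totals alone they were 764 and 175, and where each library had at least 10 counts they were 396 and 70. Fitted folds of genes near 0 in 1 chamber depend on the prior count. For 17 of the genes higher in the omasum all rumen libraries had 0 counts, and for 1 of the genes higher in the rumen all omasum libraries had 0 counts. With these genes set at a bound of 3 counts over the 3 libraries, the medians remained 1.65 and 0.83. So few genes could hardly move a median, so that this is no check of the fitted folds. The numbers at 4-fold, 16-fold and 64-fold were not recomputed with the bound.

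**Figure D2:**
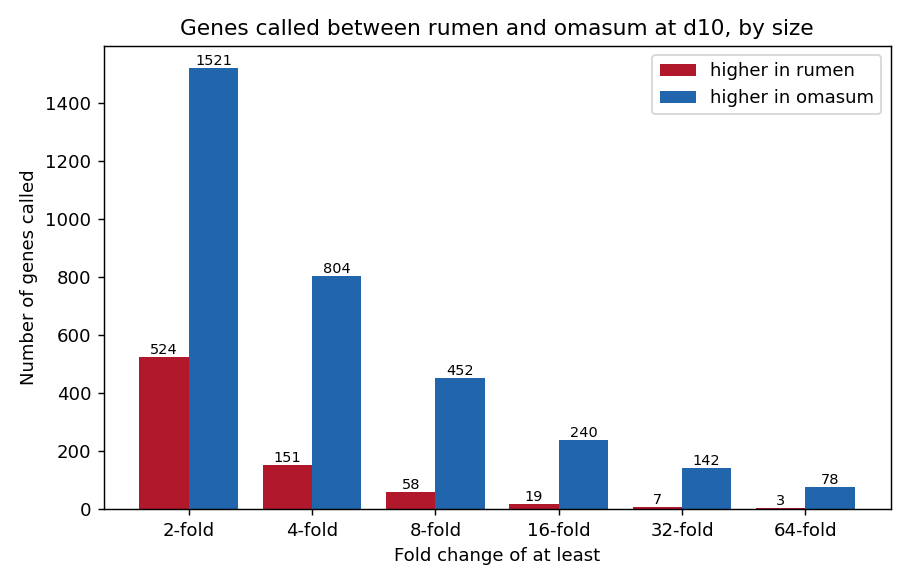
Bars give the number of genes called between rumen and omasum at d10 (vertical axis) at or above each fold (horizontal axis), for genes higher in the rumen (red) and in the omasum (blue). The omasum bar is higher at each size, from 1521 against 524 genes at 2-fold to 78 against 3 genes at 64-fold.

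The excess of calls on the omasum side lay in genes of low and middle level, while large differences were more often on the omasum side at each level. In the range of 1 to 5 CPM, which held 2706 genes, 508 (18.8%) were higher in the omasum and 161 (5.95%) in the rumen. Of the 5836 genes with 20 to 100 CPM, 600 (10.3%) were higher in the omasum and 644 (11.03%) in the rumen. Of the 1960 genes above 100 CPM, 186 (9.49%) were higher in the omasum and 229 (11.7%) in the rumen. At least 4-fold differences were called for 318 genes of the omasum and 58 of the rumen at 1 to 5 CPM, for 146 and 22 at 20 to 100 CPM, and for 43 and 16 above 100 CPM. At this highest level the median log2 fold change was 1.09 for the genes of the omasum and 0.73 for those of the rumen. The genes higher in the rumen were also more abundant, with a median of 29.5 CPM over the 6 libraries, against 12.8 CPM for the genes higher in the omasum.

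The most abundant genes were shared in part. Of the 10 most abundant genes of each chamber 4 were in both lists, of the 100 most abundant 75, and of the 1000 most abundant 800. In the rumen list, 17 of the 100 genes were higher in the rumen and 1 was higher in the omasum. In the omasum list, 9 of the 100 genes were higher in the omasum and 3 were higher in the rumen. The share called on the rumen side was 9.33% of all genes tested and 11.7% of those above 100 CPM. On the omasum side it was 13.2% and 9.49%. Each list was picked by its level in 1 of the compared chambers, which tilts it towards calls on that side.

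Together, the 1411 genes higher in the rumen took 15.01%, 12.5% and 14.8% of the counts in rumen libraries 1, 2 and 3, and 6.64%, 6.32% and 7.04% in the omasum libraries. The 1999 genes higher in the omasum took 11.1%, 10.9% and 15.7% of the counts in omasum libraries 1, 2 and 3, and 4.23%, 4.61% and 4.44% in the rumen libraries. Omasum library 3 was the highest for these genes and rumen library 2 the lowest for the genes of the rumen. Since the genes were called on these libraries, the shares only describe them.

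A group of genes was near silent in the rumen. There were 77 genes with at least 1 CPM in all 3 omasum libraries and at most 3 counts in each rumen library, which is 0.561% of the 13733 genes at 1 CPM or more in all omasum libraries. Of these, 14 had 0 counts in all rumen libraries. Their median level in the omasum was 4.69 CPM, and the highest was at 249 CPM. The reverse rule gave 4 genes (0.0300% of 13343 genes), with a highest mean of 11.9 CPM. With a minimum of 5 CPM in place of 1 CPM, 11 genes were left for the omasum and 0 for the rumen.

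The 77 omasum genes were not confined to the omasum. In the reticulum at d10, 56, 66 and 22 of them reached 1 CPM in libraries 1, 2 and 3. In the abomasum libraries of d10, 10 to 15 of them did, with a summed level of 701, 394 and 530 CPM. Their summed level was 996, 457 and 1033 CPM in the omasum libraries of d10, and 410, 650 and 117 CPM in reticulum libraries 1, 2 and 3. In the d5 rumen, which was not used to choose them, 0, 2 and 3 of the 77 genes reached 1 CPM and the sums were 8.77, 14.6 and 14.5 CPM. In omasum library 3 of d5, 39 of the 77 genes reached 1 CPM, with a sum of 178 CPM. By the limit of 3 counts that chose the genes, 52 of the 77 were at or under it in all 3 rumen libraries of d5. Only 20 of the 77 were so and also reached 1 CPM in omasum library 3 of d5. The rumen sums at d10 were 4.17, 5.04 and 4.42 CPM in libraries 1, 2 and 3. Rumen values were thus low at d5 too, but not under the limit for all 77 genes, and the d5 sums were higher.

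On the omasum side, the fitted log2 fold changes (rumen over omasum) of the 2 named genes were -11.95 and -11.93, and their order depended on the tool. DESeq2 gave -11.43 and -12.12 and limma-voom -9.92 and -11.47. The gene *ENSOARG00000003161* had 0 counts in each of the 3 rumen libraries and 22.7, 21.3 and 45.7 CPM in omasum libraries 1, 2 and 3. The mean in the omasum was 29.9 ± 13.7 CPM (SD, n = 3). The CPM pooled over the omasum libraries was at least 479-fold higher than 3 counts over the rumen libraries. The test gave an adjusted P of 0.000381 (edgeR). The gene also had 0 counts in the 3 rumen libraries of d5, and 8.78 CPM in omasum library 3 of d5. In the reticulum at d10 it had 0.444, 12.02 and 0.357 CPM, so that library 2 stood near the omasum and the others near the rumen.

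The other gene, *ENSOARG00000019993*, had 0, 0.0542 and 0.118 CPM (0, 1 and 2 counts) in the rumen and 482, 137 and 128 CPM in the omasum. The mean in the omasum was 249 ± 202 CPM (SD, n = 3), with library 1 far above the others, and the groups did not overlap (edgeR adjusted P = 0.000308). The ratio of the pooled CPM was 4182, with a counting interval (exact binomial, 95%) of 1431 to 20282 that leaves out the spread between libraries. In the reticulum at d10 the gene had 14.2, 84.9 and 3.14 CPM, and in the abomasum of both ages it was below 1 CPM in each library. At d5 it had 0, 0.153 and 0 CPM in the rumen and 13.7 CPM in omasum library 3.

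On the rumen side, *ENSOARG00000017457* had 12.2, 2.22 and 21.3 CPM in rumen libraries 1, 2 and 3, and 0, 0 and 0.0684 CPM (1 count in all) in the omasum. It is 1 of the 4 genes near silent in the omasum. The mean in the rumen was 11.9 ± 9.56 CPM (SD, n = 3), with a log2 fold change of 8.64 ± 1.25 (SE) and an edgeR adjusted P of 0.00316. The pooled ratio was 566, with a counting interval of 101 to 22413. At d5 it was at 0.390, 0.230 and 0.734 CPM in the rumen and had 0 counts in omasum library 3. In the reticulum at d10 it had 0.0740, 0.238 and 6.79 CPM, so that only library 3 was within the range of the rumen.

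The gene *ENSOARG00000025193* had 68.1, 3.03 and 46.9 CPM in rumen libraries 1, 2 and 3, and 0, 0 and 0.615 CPM in the omasum. Rumen library 2 was far below the others but above each omasum library. The log2 fold change was 7.58 ± 1.43 (SE; edgeR adjusted P = 0.00874), and over the alternatives the adjusted P ran from 0.000708 to 0.133, the highest by limma-voom. The same gene was low in library 2 of the reticulum at d10, with 0.119 CPM, against 11.03 and 27.9 CPM in libraries 1 and 3. At d5 the rumen had 2.99, 0.613 and 1.40 CPM and omasum library 3 had 0 counts.

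**Figure D3:**
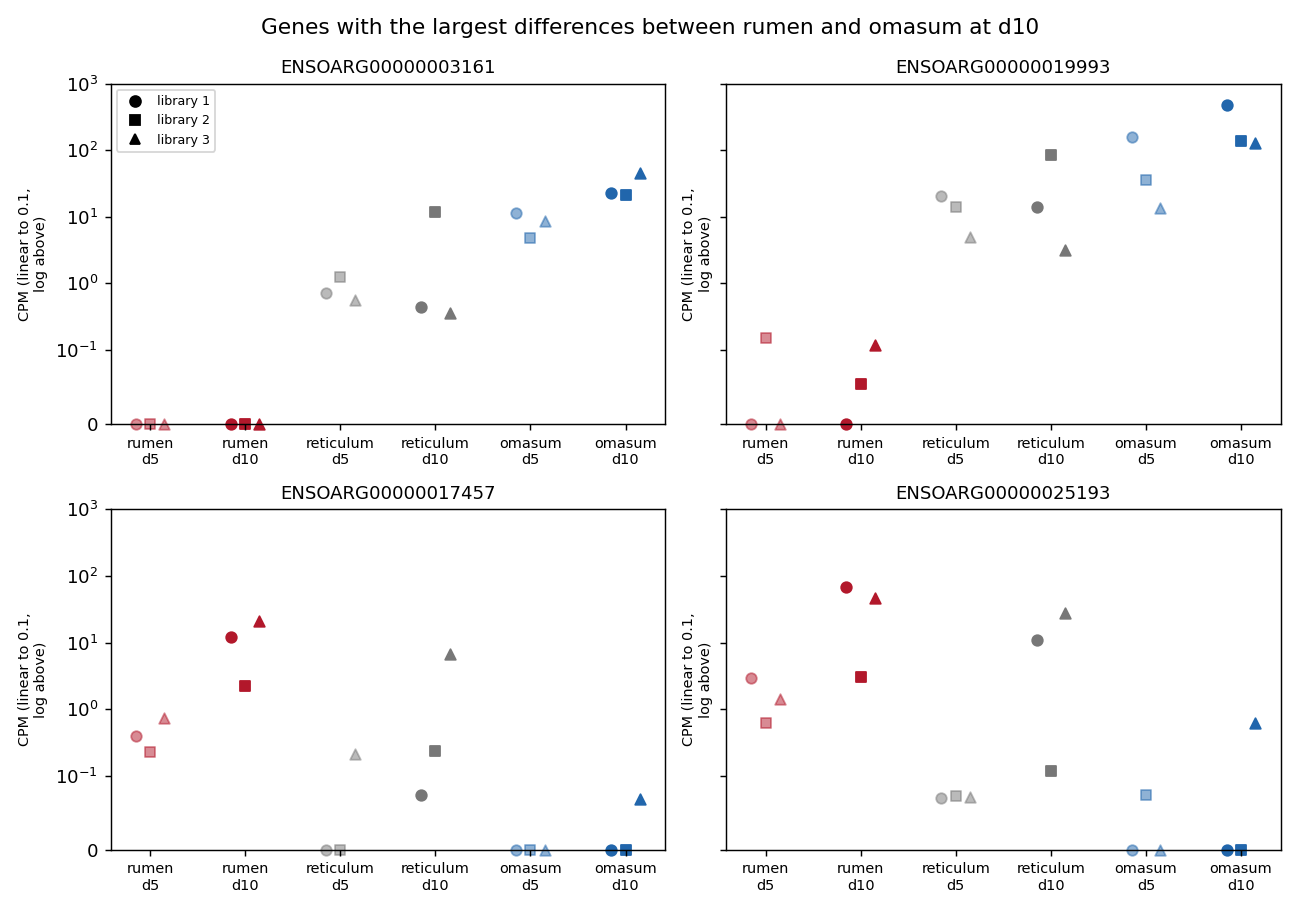
CPM of the 4 genes named above, with the largest fitted fold changes among genes averaging at least 5 CPM (vertical axis, linear up to 0.1 CPM and log above) in each library of rumen, reticulum and omasum at d5 and d10 (horizontal axis); marker shapes are library numbers. The rumen points of the upper pair lie at or near 0 at both ages, and the reticulum points spread between rumen and omasum.

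Whether the differences of d10 were already present in younger lambs was read from the 3 rumen libraries of d5 and omasum library 3 of d5, none of which entered the d10 test. The d5 side has 1 omasum library and no replicate check. At d5, 158 genes were at least 4-fold higher in omasum library 3 than in each rumen library, and 65 were at least 4-fold lower. Of the 158 genes, 153 were tested at d10, and 143 of them (93.5%) were higher in the omasum at d10, while 2 were higher in the rumen. Over all genes tested, 13.2% were higher in the omasum. Of the 65 genes, 59 were tested at d10, and 26 (44.1%) were higher in the rumen, while 0 were higher in the omasum by edgeR (1 at an unadjusted P under 0.05, and DESeq2 also called 0). Over all genes tested, 9.33% were higher in the rumen. By DESeq2, 34 of the 59 genes (57.6%) were higher in the rumen, against 12.1% of all genes tested, and 143 of the 153 genes were higher in the omasum, against 15.3%. By edgeR, the median log2 fold change at d10 was -4.48 for the 153 genes of the omasum and 1.42 for the 59 genes of the rumen.

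**Figure D4:**
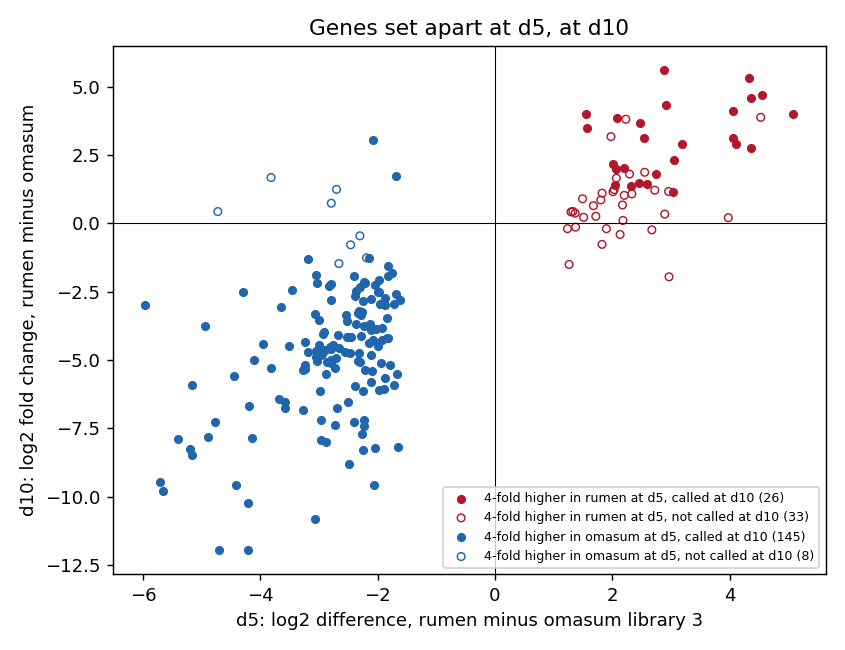
The log2 fold change at d10 (rumen minus omasum, vertical axis) is plotted against the log2 difference at d5 (mean of 3 rumen libraries minus omasum library 3, horizontal axis) for the genes at least 4-fold apart at d5; filled points were called at d10. Of the 153 genes higher in the omasum at d5, 147 have a negative fold change at d10.

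Read the other way, the genes of d10 were split by side. Of the 749 genes that passed the minimum fold of 2 on the omasum side, 710 (94.8%) were also higher in omasum library 3 at d5, against 53.8% of all genes tested. The share was 90.9%, 92.8% and 93.6% against rumen libraries 1, 2 and 3 of d5 one at a time. Their median log2 difference was -1.05 at d5 and -3.26 at d10. Of the 105 genes on the rumen side, 62 (59.0%) were also higher in the rumen at d5, against 46.1% of all genes tested, with a median of 0.52 at d5 and 2.32 at d10. The d10 medians belong to genes chosen at d10, so that the size of the d5 and d10 values was not compared.

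The change of the chamber difference with age was tested in 10 libraries, namely rumen d5, rumen d10, omasum d10 and omasum library 3 of d5. It was significant for 24 of 16360 genes (0.147%, edgeR interaction test), of which 13 had a more positive rumen minus omasum difference at d10 than at d5 and 11 a more negative one. The 4 genes given by identifier were not among them. All 4 were at or near 0 counts in 1 of the chambers at d5, and *ENSOARG00000003161* had 0 counts in the rumen at both ages. The test could therefore not show that their chamber difference stayed the same. The count was 13 and 67 without rumen library 1 or 2, and 2 and 6 without omasum library 1 or 2. The count also depended strongly on the tool and on the libraries fitted, as given below. With 1 omasum library at d5, a small count does not show that the chamber differences stayed the same with age.

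The reticulum lies between the rumen and the omasum in the stomach, and its d10 libraries took no part in calling the genes. Of the 1999 genes higher in the omasum, 87.4% had a reticulum mean between those of rumen and omasum, and so had 79.6% of the 1411 genes higher in the rumen, against 46.9% of all genes tested. Both ends were chosen to lie apart, so that a place between them is more likely for called genes. The reticulum mean was nearer to the rumen for 30.8% of the genes higher in the omasum and for 33.9% of those higher in the rumen, against 40.3% of all genes tested. Of the genes at the minimum fold of 2 it was 20.7% and 60.0%.

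The means cover reticulum libraries that differed among themselves. On a scale with the omasum mean at 0 and the rumen mean at 1, the genes higher in the omasum had a median place of 0.23, 0.04 and 0.76 in reticulum libraries 1, 2 and 3. The genes higher in the rumen had a median place of 0.44, 0.14 and 0.53. Library 2 was thus near the omasum for both groups of genes. Library 3 was nearer to the rumen for 69.5% of the genes higher in the omasum. For the genes higher in the rumen it was about midway, with 51.2% nearer to the rumen. The 804 genes at least 4-fold higher in the omasum took 4.29%, 4.06% and 6.72% of the counts in the omasum libraries and 5.27%, 5.63% and 1.14% in reticulum libraries 1, 2 and 3. In the rumen they took 0.442% to 0.545% at d10 and 0.568% to 0.644% at d5, and in omasum library 3 of d5 2.10%.

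**Figure D5:**
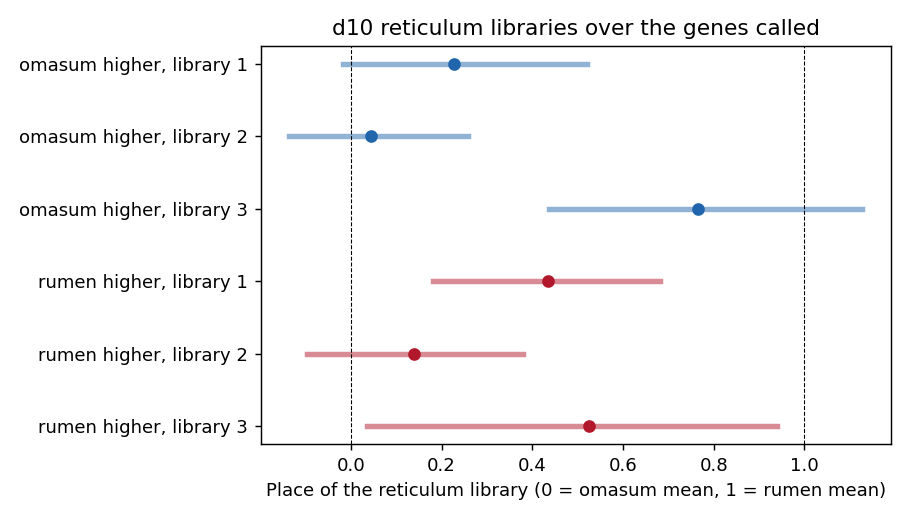
Place of each d10 reticulum library between the omasum mean (0) and the rumen mean (1) on the log2 CPM scale (horizontal axis), over the genes called higher in the omasum (blue) or in the rumen (red); points are medians over genes and bars are quartiles. Reticulum library 3 sits at 0.76 for the genes higher in the omasum, and library 2 at 0.04.

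The genes were also read in the glandular stomach. Of the 1999 genes higher in the omasum, 188 (9.40%) had a higher mean in the abomasum at d10 than in the omasum, and of the 1411 genes higher in the rumen 188 (13.3%) had a higher mean in the abomasum than in the rumen. Of the 749 genes on the omasum side at the minimum fold of 2, 40 (5.34%) had a higher mean in the abomasum than in the omasum, and of the 105 genes on the rumen side 22 (21.0%) had a higher mean in the abomasum than in the rumen. Over all genes tested these shares were 21.1% and 20.5%, and the difference between the sides was not tested. Each set was chosen as high in 1 chamber and low in the other, which tilts such shares. Of the genes higher in the omasum, 35.3% had a higher abomasum mean than rumen mean, against 20.5% of all genes tested. Of the genes higher in the rumen, 37.3% had a higher abomasum mean than omasum mean, against 21.1%. At the minimum fold of 2 these shares were 39.9% and 61.0%. The 151 genes at least 4-fold higher in the rumen took 2.94%, 1.65% and 2.56% of the counts in rumen libraries 1, 2 and 3, 0.236% to 0.534% in the omasum and 1.29% to 3.91% in the abomasum libraries of d10.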

How the data were processed

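One table of unnormalized gene counts was deposited by the authors. CASAVA 1.8 and TopHat2 2.0.13 appear in the submitters' processing notes. The counter, genome build, annotation and strandedness were not stated in any source used here. Chamber, day and library number were taken from the labels.

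Counts were tested with edgeR 4.0.16 (quasi-likelihood test after filterByExpr and TMM, two-sided, under R 4.3.3) on the 6 libraries, with Benjamini-Hochberg adjustment over all genes tested and a threshold of 0.05. Alternatives were DESeq2 1.42.0, limma-voom (limma 3.58.1), other scalings and filters, robust estimation, glmTreat, single libraries left out, the replicate block, and fits with more libraries. CPM was computed over library totals. The SE is the log2 fold change divided by the square root of F. In counts simulated for this comparison (14951 genes run, changes only in genes averaging 50 counts or more), 96 of 100 genes changed 4-fold and 45 of 100 changed 2-fold were recovered, and 16 of 157 calls were unchanged genes. That share of unchanged genes was above the threshold of 0.05. Far fewer genes were changed there than were called in the data, so that these shares need not hold for the data or for genes of lower counts. Library pairs of 1 chamber differed by more than sampling noise (chi-square per degree of freedom 25.5 to 87.2, genes with at least 10 counts in both), and each library was counted as 1 replicate. As the labels do not say that libraries came from separate lambs, P-values measure the spread between these libraries. Deviations of same-numbered rumen and omasum libraries from the chamber means correlated with r = 0.307, 0.320 and 0.214, all above 0.1, and different numbers at -0.0706 or less. The numbers may thus pair the libraries, which rests on the data alone. The counts and P-values given are from the fit without pairs, and the replicate block is 1 of the alternatives. Named genes were the 2 with the largest log2 fold change in each direction among genes called, averaging 5 CPM or more and with chambers apart in CPM. At d5, counts below 3 were set to 3 and genes needed a mean count of at least 10. The log2 difference at d5 used CPM with a pseudocount of 0.5. The members and lists were chosen with earlier results of these data known. Gene lists by function were not run, as no table used here pairs the identifiers with names.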

Additional observations from a re-analysis of the deposited data

Results flagged for a closer look

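The difference between rumen and omasum changed from d5 to d10 for 24 genes by the edgeR interaction test, where the spread of the 1 omasum library of d5 is borrowed from the remaining groups. The count varied with the library left out and with the fit, as given above.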

How the results depend on the processing

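Counts are genes at an adjusted P under 0.05. For rumen against omasum (3410 genes, 1411 higher in the rumen and 1999 in the omasum), leaving out single libraries gave 1993 to 2916 genes in all, 654 to 1158 higher in the rumen and 1339 to 1784 higher in the omasum. A minimum log2 fold change of 1 gave 854 (105 and 749), the 9 forestomach libraries of d10 2238 (902 higher in the rumen), all 24 libraries 1444 (395 and 1049), and all but omasum d5 libraries 1 and 2 1690 (515 and 1175). In these 3 larger fits other chambers and ages share the estimate of the spread, and the cause of the lower counts was not tested. The replicate block gave 3852 genes (1646 and 2206), 3228 of them among the 3410. Each gene called both by an alternative and in the 6 libraries kept its direction. Since the alternatives reuse these d10 libraries, this is no independent check. DESeq2 gave 4143 genes (1825 and 2318, 12.1% and 15.3% of those tested).

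For the change of the chamber difference with age (24), leaving out single d10 libraries gave 2 to 67, DESeq2 826, no filter 127, and all but omasum d5 libraries 1 and 2 gave 0. For genes set apart at d5, a 2-fold limit left 271 rumen-side genes tested at d10. Of these, 83 (30.6%) were called on the rumen side and 9 on the omasum side. It also left 460 omasum-side genes, with 355 (77.2%) called on the omasum side and 14 on the rumen side. An 8-fold limit gave 9 of 11 rumen-side genes (81.8%) and 51 of 53 omasum-side genes (96.2%), with 0 opposite calls. Over all genes tested, the shares called were 9.33% for the rumen and 13.2% for the omasum. Detection at 5 CPM gave 11 genes in the omasum and 0 in the rumen. The share of rumen genes with the reticulum on the rumen side was 60.0% at a minimum log2 fold change of 1; this setting, the library totals alone and a looser rule for the abomasal and forestomach sets were chosen after seeing the data. Of the 68 alternative values of the 4 genes given by identifier, which reuse the same d10 libraries, 67 kept their call and 0 changed direction. The filter of at least 10 counts in each library left none of the 4 genes. The exception was *ENSOARG00000025193* in limma-voom.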

Other observations

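The spread between libraries was close in both chambers. Over the 15124 genes tested, log2 CPM varied between the 3 libraries with a median SD of 0.23 in the rumen and 0.24 in the omasum. Above 100 CPM it was 0.16 in the rumen and 0.19 in the omasum, with the SD larger in the omasum for 57.3% of 1960 genes.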
